A study of Mus musculus with 8 samples.

Results

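Drebrin (Dbn1) and 5 further genes for actin-binding proteins of dendritic spines and growth cones (Dbnl, Cttn, Enah, Evl and Vasp) were followed through an exon array study of the Ptbp2 knockout cortex. The members are the probe sets that the platform annotation assigns to exactly 1 of these 6 symbols, 147 of the 625534 probe sets of the table. The set was drawn up because a Dbn1 probe set was known to differ between the genotypes relative to its gene, and the other 5 genes were added for their function. The same contrast therefore chose Dbn1, so the genotype differences of the 6 genes are given as a description, with no p-value.

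Drebrin lies along actin filaments of neurons, where it changes the twist of the filament and slows its turnover. The gene is known for alternative splicing: an embryonic form is made in migrating and growing neurons, and an adult form with an additional exon replaces it as synapses mature. Dbnl encodes a drebrin-like adaptor that couples actin to endocytosis, cortactin (Cttn) stabilises branched filaments made by the Arp2/3 complex, and Enah (Mena), Evl and Vasp form the Ena/VASP family, which keeps filament tips growing in filopodia. Ptbp2 encodes an RNA-binding protein of differentiating neurons that mostly represses alternative exons.

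The study compared cortex from 4 wild type and 4 Ptbp2 knockout mouse embryos of embryonic day 18.5, with 1 array for each embryo. Both groups had the same mixed background of CD1 and C57BL/6, the embryos are stated to be biological replicates, and the allele and the litters are not described in the sources used here. Gene values of Ptbp2, on a log2 scale, were 11.08 to 11.40 in wild type and 5.54 to 6.24 in knockout cortex. Array medians lay between 6.82 and 6.93 (log2). Of 10 cortical neuron markers 8 could be tested, and their mean value was 11.05 to 11.31 in wild type and 11.15 to 11.22 in knockout cortex. Markers of striatal neurons (6 of 8 tested, all 6 lower in knockout cortex by their group means, 0 passing the test) had means of 9.00 to 9.28 in wild type and 8.51 to 8.85 in knockout cortex, without overlap. Choroid plexus markers (5 of 5) had a mean of 7.22 in knockout 2 and of 8.70 to 9.18 on the other 7 arrays.

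A filter on low signal left out every probe set whose 8-array mean fell short of 6.84, the middle of all probe set means. It kept 137 of the 147: 26 of 26 for Dbn1, 17 of 18 for Dbnl, 19 of 20 for Cttn, 32 of 35 for Enah, 21 of 23 for Evl and 22 of 25 for Vasp. The 10 that were left out had group means between 2.97 and 6.72, and the groups overlapped in all 10. The value of a gene on an array was the median of its retained probe sets.

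As whole genes, none of the 6 passed in level. Dbn1 had gene values of 11.64, 11.46, 11.53 and 11.65 in wild type 1 to 4 and of 11.59, 11.52, 11.50 and 11.57 in knockout 1 to 4. The knockout values lay inside the range of the wild type ones. The difference, knockout minus wild type, was -0.03 on the log2 scale (SE 0.09), and 82.3% of all genes tested differed by more in absolute size. The limma fit over 12960 genes passed 0.116% of them at an adjusted p under 0.05 and 0 of the 6 members. At an unadjusted p under 0.05 it held 6.49% of all genes and 1 member, Vasp. In bulk tissue, fewer cells of a type and less RNA per cell cannot be told apart.

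**Figure D1:**
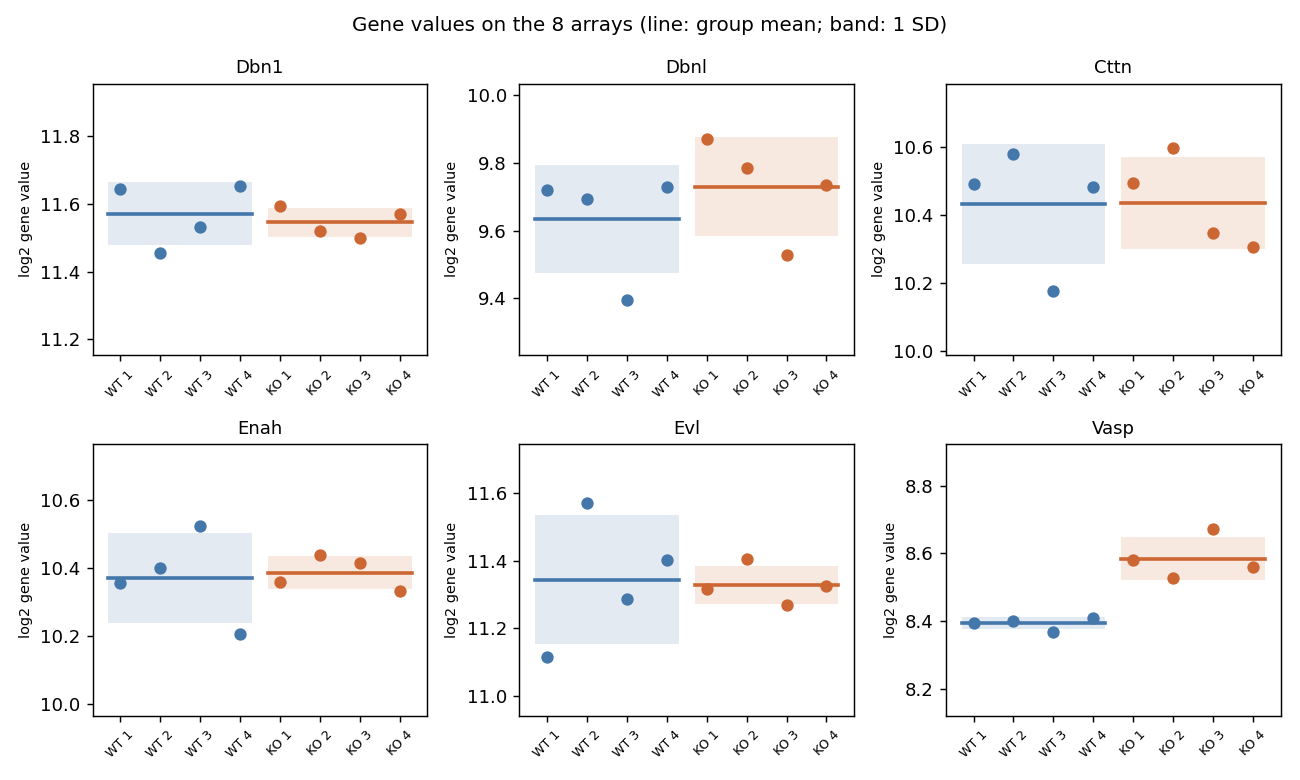
Log2 gene values of the 6 genes on the 4 wild type (WT, blue) and 4 knockout (KO, orange) arrays; lines are group means, bands are 1 SD, and every panel spans 0.8 log2 units. The groups overlap for Dbn1, Dbnl, Cttn, Enah and Evl, while the 4 knockout values of Vasp (8.53 to 8.67) lie above the 4 wild type values (8.37 to 8.41).

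Within Dbn1, a pair of probe sets stood well above their wild type signal in the knockout. Probe set 4469118 read 7.60, 7.98, 7.69 and 7.96 in wild type 1 to 4 and 9.53, 9.09, 9.12 and 9.37 in knockout 1 to 4. The lowest knockout array lay 1.12 log2 units above the highest wild type array. Group means were 7.81 ± 0.19 and 9.28 ± 0.21 (SD, n = 4 each), a level difference of 1.47 (SE 0.14), or 2.78-fold on the RMA scale. This was the probe set whose deviation brought Dbn1 into the set.

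Probe set 5244011 was not named in that choice, but it belongs to the same gene and contrast. It read 6.90, 6.76, 6.95 and 7.35 in wild type and 7.51, 7.52, 7.72 and 7.97 in knockout cortex. The groups did not overlap, with a gap of 0.17 between wild type 4 and the lowest knockout array. Means were 6.99 ± 0.25 and 7.68 ± 0.22 (SD, n = 4 each), a level difference of 0.69, or 1.61-fold. Since wild type 2 lay below the signal filter of 6.84 and the wild type mean only just above it, the difference is not an exact size.

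**Figure D2:**
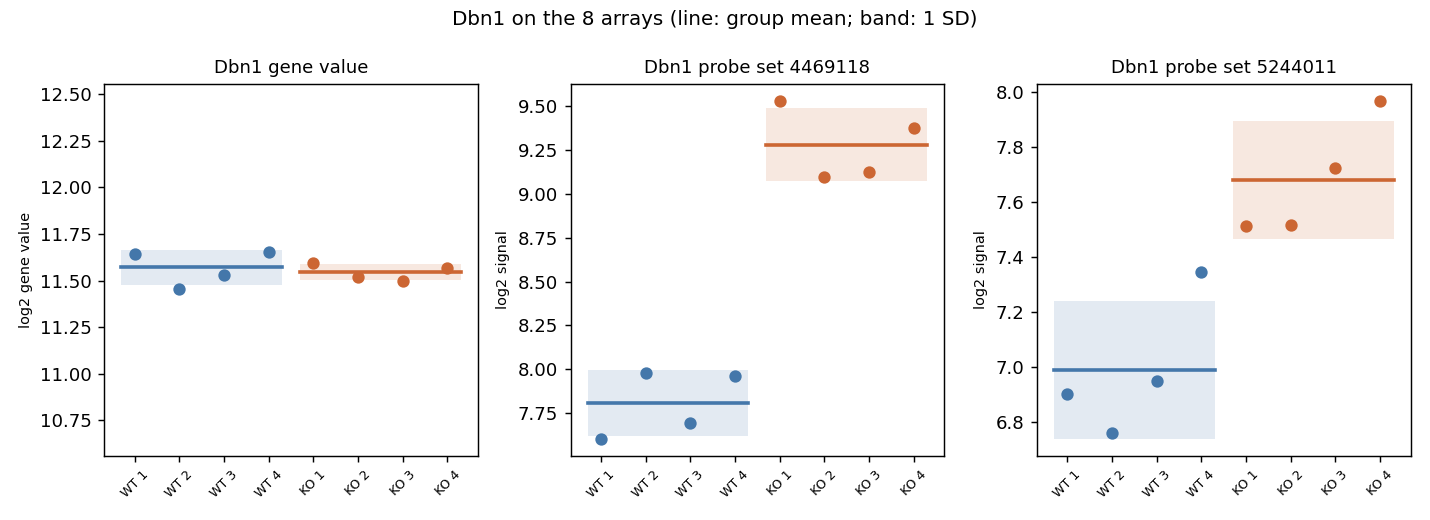
Dbn1 on the 8 arrays: the log2 gene value (left) and the log2 signal of probe sets 4469118 (middle) and 5244011 (right), with group means (lines) and 1 SD (bands); each vertical axis has its own range. The gene values overlap between the groups, and both probe sets are higher on all 4 knockout arrays than on any wild type array.

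To set each probe set against its gene, the gene value of the same array was subtracted from its log2 signal, which gives the splicing index. For 4469118 the index was -4.04, -3.48, -3.84 and -3.69 in wild type 1 to 4 and -2.06, -2.43, -2.37 and -2.19 in knockout 1 to 4, a difference of 1.50 (SE 0.14). For 5244011 it was -4.74, -4.69, -4.58 and -4.30 in wild type and -4.08, -4.01, -3.78 and -3.60 in knockout cortex, a difference of 0.72 (SE 0.14). In both the 4 knockout arrays lay above the 4 wild type arrays. Limma diffSplice, which compares a probe set with the others of its gene, gave deviations of 1.47 and 0.66.

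Both of these probe sets, 2 of the 137 retained, passed diffSplice at an adjusted p under 0.05, as did 0.216% of the 195622 probe sets tested. The splicing index model, with a variance for each probe set, passed 4469118 alone, against 0.0107% of all. As a plain level, 4469118 was the only member probe set to pass, against 0.0921% of 312767. These counts come from the contrast that chose Dbn1 and nothing is read from them. Whichever single array was left out, both passed diffSplice and 4469118 passed in level. In the splicing index model 4469118 passed in 1 of the 8 such fits, the one without wild type 2, and its difference was 1.41 to 1.59 over the 8. Without wild type 3 and knockout 3 together it was 1.51, where diffSplice passed both probe sets and the splicing index model neither. The splicing index model also did not pass 4469118 with no signal filter or with the replicate number as a block. With the signal filter at the 75th percentile (8.55) neither was retained, since their means over the 8 arrays were 8.55 for 4469118, just under the limit before rounding, and 7.34 for 5244011.

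The other 24 Dbn1 probe sets held splicing index differences between -0.30 and 0.34, and 20 of them were smaller than 0.25 in absolute size. They were balanced, with 11 above and 13 below 0. Their median signal was 11.65 ± 0.04 in wild type and 11.63 ± 0.06 in knockout cortex (SD, n = 4 each). Next below the pair was 5578522 (0.34), with wild type and knockout means of 9.90 ± 0.27 and 10.22 ± 0.11, whose indices did not overlap between the groups while its signals did. It was followed by 5070152 (0.31) and 5122222 (0.21), and both overlapped. At the lower end were 5229075 (-0.30), 4832926 (-0.29), 5585241 (-0.18) and 5090921 (-0.16), also with overlapping indices. The second of the 24 without overlap in the index was 5526613 (-0.10). In plain signal, 4832926 (8.27 ± 0.23 and 7.96 ± 0.08) and 5090921 (10.52 ± 0.08 and 10.34 ± 0.09) were lower on every knockout array than on any wild type array. The exons that the probe sets represent were not known here, so no difference is assigned to the embryonic or adult form of drebrin.

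**Figure D3:**
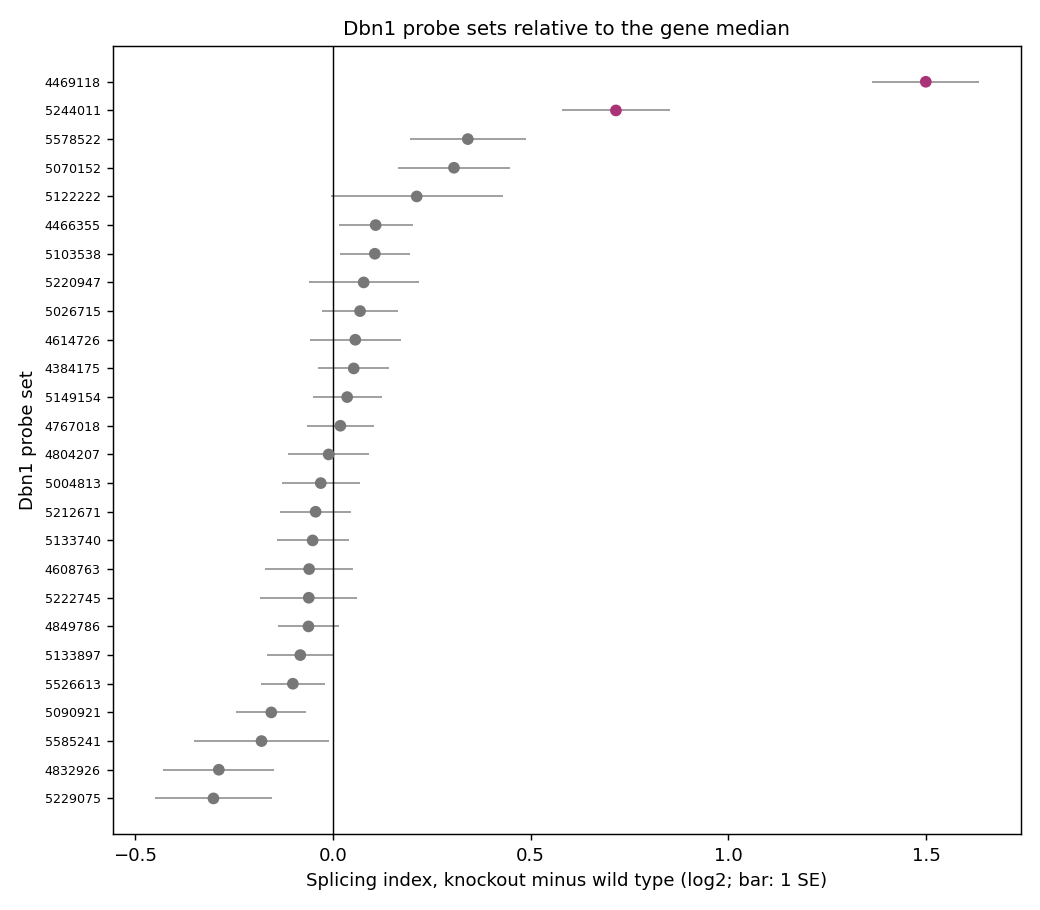
Splicing index difference (knockout minus wild type, log2; horizontal axis) of the 26 Dbn1 probe sets, sorted by size and not by position in the gene; bars are 1 SE, and purple points passed diffSplice at an adjusted p under 0.05. Probe sets 4469118 (1.50) and 5244011 (0.72) stand apart from the other 24, which lie between -0.30 and 0.34.

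Dbnl, the drebrin-like adaptor, had gene values of 9.72, 9.69, 9.40 and 9.73 in wild type and 9.87, 9.78, 9.53 and 9.73 in knockout cortex. The groups overlapped, and the array numbered 3 was the lowest of each. The level difference was 0.10 (SE 0.11). None of its 17 retained probe sets passed in usage. The most raised was 4957145 (splicing index difference 0.27, SE 0.23) and the most lowered 5194856 (-0.50, SE 0.34), and both overlapped between the groups. The difference of 4957145 was 0.06 to 0.38 with 1 array left out.

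Cortactin (Cttn) was at 10.49, 10.58, 10.18 and 10.48 in wild type and 10.50, 10.60, 10.35 and 10.30 in knockout cortex. The groups overlapped almost fully, with wild type 3 the lowest of all 8 arrays, and the level difference was 0.0042 (SE 0.11). Of 19 retained probe sets, 17 had splicing index differences under 0.25 in absolute size. The most raised, 4907220, had signals of 6.85, 6.86, 6.30 and 6.95 in wild type and 7.39, 7.27, 7.17 and 6.96 in knockout cortex. The highest wild type array and the lowest knockout array were thus nearly equal, while its splicing index (difference 0.45, SE 0.10) did not overlap between the groups. Its wild type mean of 6.74 lay below the signal filter, so this is not an exact size. The most lowered, 4785394 (-0.47, SE 0.24), overlapped. Neither passed in usage.

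Of the Ena/VASP family, Enah and Evl had gene values that overlapped between the groups. Enah was at 10.36, 10.40, 10.53 and 10.21 in wild type and 10.36, 10.44, 10.42 and 10.33 in knockout cortex, with all knockout values inside the wild type range. Evl was at 11.12, 11.57, 11.29 and 11.40 in wild type and 11.32, 11.40, 11.27 and 11.32 in knockout cortex, again inside it. The level differences were 0.02 (SE 0.09) for Enah and -0.02 (SE 0.10) for Evl. Most of their single probe sets were lower, without a test: 26 of 32 retained Enah probe sets were below wild type and 6 above (median -0.09), as were 15 and 6 of Evl (median -0.03). As the mean of its probe sets, Enah differed by -0.11, opposite in sign to the median and with overlap. Over the alternatives run, the level difference took both signs for Dbn1 (-0.12 to 0.06), Cttn (-0.08 to 0.05), Enah (-0.15 to 0.10) and Evl (-0.17 to 0.06), and it stayed above 0 for Dbnl (0.02 to 0.16) and Vasp (0.04 to 0.21). No alternative passed any of the 6 genes in level.

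Vasp had the largest difference in gene value of the 6 with the median and filter used here. Its gene values were 8.40, 8.40, 8.37 and 8.41 in wild type and 8.58, 8.53, 8.67 and 8.56 in knockout cortex. All 4 knockout arrays lay above all 4 wild type arrays, as for 1.68% of all genes tested, and the groups failed to overlap in either direction for 3.65%. The level difference was 0.19 (SE 0.08), which did not pass. It was 0.16 to 0.21 with 1 array left out, but it depended on how the probe sets were summarised. As the mean of the 22 retained probe sets, Vasp was at 8.50, 8.58, 8.43 and 8.59 in wild type and 8.54, 8.47, 8.68 and 8.55 in knockout cortex, with overlap and a difference of 0.04. It was 0.05 with no signal filter. Under a filter at the 75th percentile it was 0.07, with 12 probe sets remaining. Other members then differed by more: Enah by -0.106, Dbn1 by 0.059 and Dbnl by 0.043 with the mean (Vasp 0.036), Evl by -0.17 with no filter, and Enah by -0.15 and Dbn1 by -0.12 among others at the 75th percentile. Of the 22, 13 were higher and 9 lower in knockout cortex, from -0.29 to 0.31.

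Vasp is also expressed outside neurons, so markers of other cells are set beside it. Of 8 microglial markers 4 could be tested (Csf1r, C1qb, Tyrobp and Cd68), all 4 higher by their group means and 0 passing the test. Their mean was 7.87 to 8.17 in wild type and 8.20 to 8.42 in knockout cortex, without overlap, although each of the 4 overlapped alone. The array highest in this mean was knockout 1, and the array highest in Vasp was knockout 3. Cx3cr1, P2ry12, Aif1 and C1qa had fewer than 4 retained probe sets. Meningeal markers (4 of 5 tested, 3 higher and 1 lower) overlapped, with means of 9.43 to 9.65 in wild type and of 9.68, 9.39, 9.88 and 9.45 in knockout 1 to 4, highest on knockout 3 as Vasp was. Endothelial markers (6 of 7 tested) overlapped, at 8.51 to 8.78 and 8.64 to 8.77. The only platelet marker tested, Itga2b (1 of 4), was at 7.31 to 7.65 and 7.46 to 7.60. The part of these cells in the Vasp values was not tested.

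In usage, the 3 family members held no probe set that passed diffSplice or the splicing index model. For Evl, the splicing index differences of all 21 retained probe sets lay between -0.19 (4444762) and 0.12 (4844152), and none separated the groups. Enah had 5 of 32 retained probe sets without overlap in the index and Vasp 2 of 22. Over the 6 genes the number was 13 of 137, and for all probe sets tested the share was 2.92%. The 13 include 4 of Dbn1, among them 4469118, whose deviation brought that gene into the set. They also include Cttn 4907220, with a wild type mean below the signal filter. Nothing is read from this count. Enah is known for neuronal and epithelial forms made by alternative exons, but no probe set was assigned to any of these forms. In Enah the index was raised in 5058557, from -0.21, -0.21, -0.23 and -0.21 in wild type to 0.01, -0.08, 0.01 and 0.14 in knockout cortex. This is a difference of 0.23 (SE 0.08), with an SD of 0.009 in wild type and 0.092 in knockout cortex. It stood next to 0.23 for 4340938 and 0.18 for 5181204. In the index, 4699777 (-0.47) and 5394526 (-0.35) were the Enah probe sets lower on every knockout array than on any wild type array. In Vasp, 18 of 22 indices were below 0, which follows in part from subtracting a gene median that was itself 0.19 higher. The extremes were 4824904 (0.12, SE 0.13) and 4381462 (-0.48, SE 0.19), and both overlapped.

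**Figure D4:**
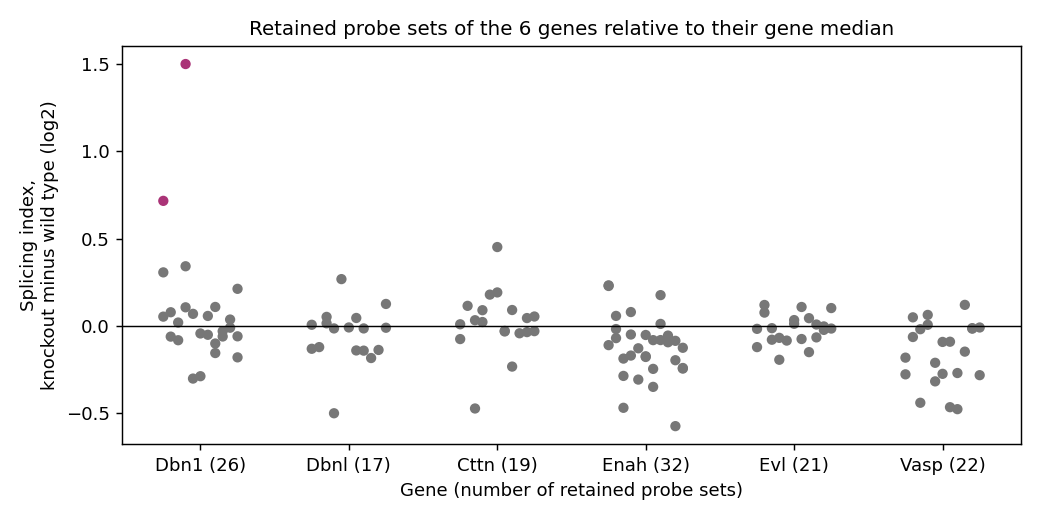
Splicing index difference (knockout minus wild type, log2; vertical axis) of the 137 retained probe sets of the 6 genes; points are probe sets, spread sideways for legibility, and purple points passed diffSplice at an adjusted p under 0.05. Apart from the Dbn1 pair at 1.50 and 0.72, the points lie between -0.57 (Enah 5422318) and 0.45 (Cttn 4907220).

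In the most lowered probe set of 5 of the 6 genes, the lowest splicing index of the 8 arrays was that of knockout 3. In 4 of these the next lowest was knockout 1. The probe sets were picked for a low knockout mean relative to wild type, which favours a knockout array as the lowest. How often knockout 3 is lowest over all genes is not given here. Over all probe sets tested, 422 passed diffSplice with all arrays, 173 without knockout 1 and 171 without knockout 3. The number was 219 without wild type 1, 231 without wild type 4 and 501 without wild type 2 or wild type 3. These totals do not show which array is lowest, so whether the pattern is particular to these genes was not tested. Enah 5422318 read 11.24, 11.20, 11.13 and 11.09 in wild type and 10.66, 11.04, 9.66 and 11.05 in knockout cortex. All 4 knockout arrays lay below all 4 wild type arrays in signal, though not in the index, and knockout 3 lay 1.00 below the next array. Its splicing index difference of -0.57 (SE 0.28) was -0.25 without knockout 3. Likewise the difference of Cttn 4785394 was -0.26 in place of -0.47, that of Dbnl 5194856 -0.18 in place of -0.50, that of Dbn1 5229075 -0.18 in place of -0.30, and that of Evl 4444762 -0.08 in place of -0.19. Vasp 4381462 was lowest on knockout 1. Without knockout 4, diffSplice passed 4 member probe sets in place of 2, as Dbn1 5229075 and Enah 5422318 were added. Enah 5422318 also passed without knockout 2. Over all probe sets tested the number passing rose too, from 422 to 793 without knockout 4 and to 865 without knockout 2. Of the raised Dbn1 probe sets, 4469118 was highest on knockout 1 and 5244011 on knockout 4. Since both were higher on every knockout array than on any wild type array, neither could be lowest on knockout 3. They therefore do not bear on the array pattern of the lowered probe sets.

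**Figure D5:**
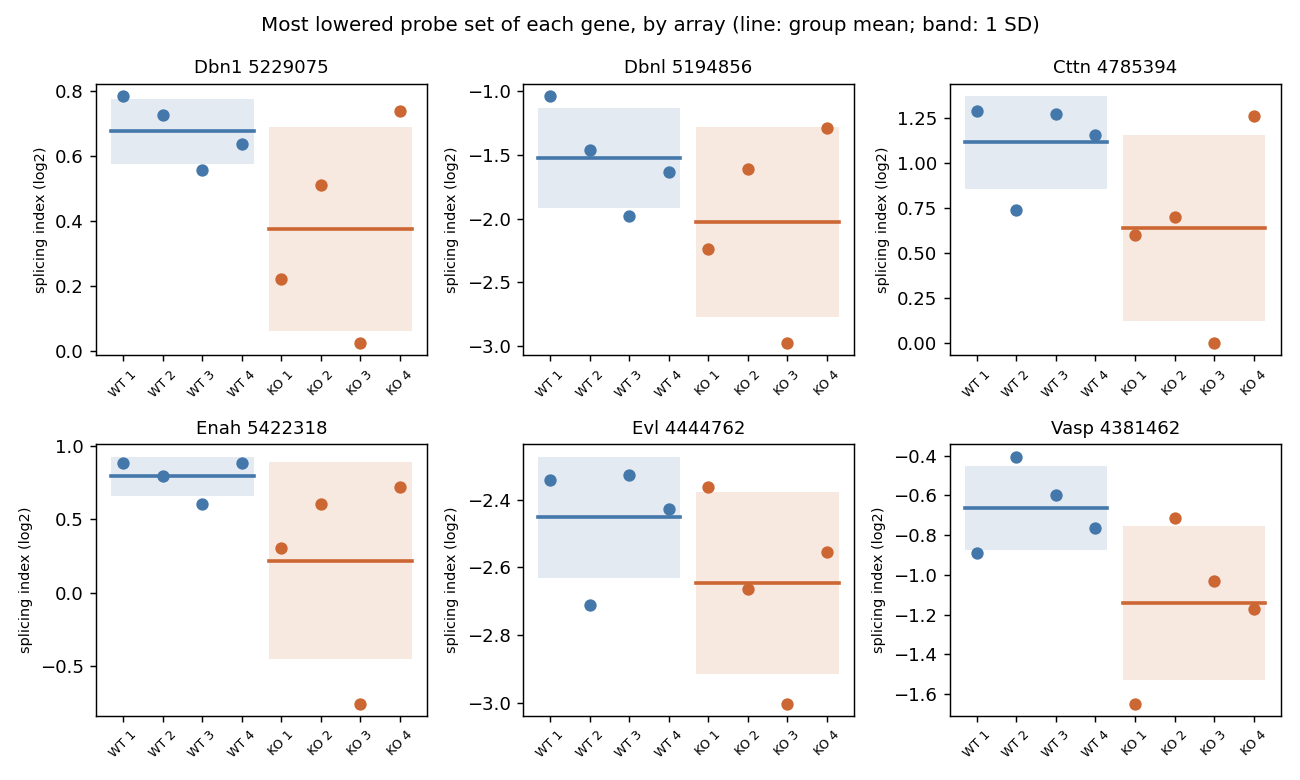
Splicing index (log2) of the most lowered probe set of each of the 6 genes on the 4 wild type (WT, blue) and 4 knockout (KO, orange) arrays, with group means (lines) and 1 SD (bands); each panel has its own vertical range. Knockout 3 is the lowest array in 5 of the 6 panels, and the groups overlap in all 6.

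The other genes of the actin machinery were examined through 5 lists chosen by function, with 82 of 86 genes tested. None passed in level with limma. At an unadjusted limma p under 0.05, 0 of the 82 were higher and 3 lower (Synpo, Diaph2 and Shank1), beside 6.49% of all genes tested in either direction. The median difference over the 82 genes was -0.01, beside 0.0027 for all genes tested. Ligands and partners of Ena/VASP (10 tested, 4 higher and 6 lower) had a median of -0.04, with Lpp, a zyxin relative of focal adhesions, at 0.20 (SE 0.11) and Sema6a, a transmembrane semaphorin, at -0.21 (SE 0.11). Genes of the Arp2/3 complex, its regulators and associated proteins (16 tested) had a median of 0.04. Those of filament turnover and capping (20 tested) had a median of 0.01, with the coronin Coro1b at 0.18 (SE 0.09) and the cofilin kinase Limk2 at 0.17 (SE 0.09). Growth cone and spine proteins (22 tested, 8 higher and 14 lower) had a median of -0.03. Among them Synpo, the spine apparatus protein synaptopodin, was at 8.15 ± 0.24 and 7.72 ± 0.21 (SD, n = 4 each; difference -0.44, SE 0.13, limma adjusted p = 0.42), and Shank1, a scaffold of the postsynaptic density, at -0.21 (SE 0.09).

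In usage, 4 of these 82 genes passed by the diffSplice Simes test at an adjusted p under 0.05, beside 2.48% of all genes tested. The first was Hip1r, which links clathrin coats to actin and binds cortactin. Its probe set 4870915 read 7.76, 7.33, 7.81 and 7.47 in wild type and 6.32, 7.10, 6.13 and 7.49 in knockout cortex. Here too knockout 3 and knockout 1 were the lowest, and knockout 4 lay inside the wild type range. The deviation was -0.87 (diffSplice adjusted p = 6.9e-05), the knockout mean of 6.76 lay below the signal filter, and the call of Hip1r was lost without knockout 1 or without knockout 3. The other 3 were formins, which nucleate unbranched filaments. They came from the list of formins and other nucleators, among them Cobl, Spire1 and Spire2 (14 tested, level median -0.02). In Fmnl2, probe set 5518746 deviated by -0.66 (diffSplice adjusted p = 0.014), also lowest on knockout 1 and knockout 3, at 7.71 and 7.78 against 8.57 to 9.62 in wild type and 8.89 and 9.11 on the other knockout arrays. In Fmn2, probe set 5050597 deviated by 0.77 (diffSplice adjusted p = 0.024), from 8.48 ± 0.12 to 9.15 ± 0.31 (SD, n = 4 each) without overlap in the index. In Fmn1, probe set 4774987 deviated by 0.87 with overlap (Simes adjusted p = 0.048 for the gene, diffSplice adjusted p = 0.055 for the probe set). With 1 array left out, Fmnl2 passed in 4 of 8 fits (not without wild type 1, wild type 3, knockout 1 or knockout 3), Fmn1 in 2 (those without wild type 2 or knockout 2) and Fmn2 in 1 (that without knockout 2). All 3 formins also lost their calls with no signal filter (Simes adjusted p = 0.37 for Fmn1, 0.13 for Fmn2 and 0.070 for Fmnl2) and with the replicate number as a block (0.074, 0.052 and 0.087), while Hip1r kept its call in both. Fmn1 also lost its call with quantile (0.069) and cyclic loess (0.062) normalization, Fmnl2 with array weights (0.10), and Hip1r at the 75th percentile (0.99). At that filter Hip1r 4870915 (group means 7.59 and 6.76) was not retained, and Fmn1 was not tested. The splicing index model passed none of the 4. Without knockout 1, without knockout 3, or without both arrays numbered 3, the number of genes passing was 0. It was 1 without wild type 1 or wild type 3, 2 without wild type 4 and 7 without knockout 2.

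Finally, the patterns most like those of Dbn1 were listed by the root mean square distance between profiles over the 8 arrays, each centred on its own mean. For the gene value, which had an SD of 0.07 over the arrays, the nearest were Ints7 and Poc1b (distance 0.03 each), followed by Trim44, Atp13a1 and Vps45 (0.03 each), with level differences between -0.04 and 0.02. For the splicing index of 4469118, which had an SD of 0.82, the nearest were Dnajc11 4349515 (distance 0.19, difference 1.45), Rsrc1 4628038 (0.22, 1.66), Tyw1 4495549 (0.23, 1.72) and Map4 4741985 and 4960574 (0.25 and 0.26, differences 1.20 and 1.33). These were sought for likeness to a probe set that separates the groups, so that they separate the groups too is part of the search.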

How the data were processed

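The deposited values are log2 signals for each probe set, and per the submitters' processing notes the authors used Affymetrix Expression Console, RMA and build mm9; versions are not stated in these sources. RMA normalizes between arrays and compresses low signals. Symbols came from the platform annotation, updated through RefSeq synonyms (GRCm38.p6). Arrays give no depth, and their number limits the precision.

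Probe sets with a mean of at least 6.84 were retained, and genes with at least 4 of them were tested. Levels were fitted with limma 3.58.1 (R 4.3.3, lmFit and eBayes) and usage with diffSplice, without covariates, over the whole table and with Benjamini-Hochberg adjustment at 0.05. Alternatives were the splicing index, other signal filters, each array or both numbered 3 left out, a replicate block, quantile and cyclic loess normalization, trend and robust moderation, array weights, and the mean in place of the median. Scripts were tested on simulated data. Members and lists were chosen with earlier results of these data known. Probe sets named are the extremes of each gene, all that passed, and the Dbn1 probe sets; outside the lists, genes are named for likeness, and in the lists those that passed or the 2 with the smallest p. Enah 4340938, 5181204, 4699777 and 5394526 and Diaph2 were named after their values were seen.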

Additional observations from a re-analysis of the deposited data

Results flagged for a closer look

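Of 38 groups of 4 values compared (the gene values of the 6 genes and the splicing indices of their 13 named probe sets, in each genotype), 1 held an array far from the others. The gene value of Dbnl in wild type 3 was 9.40, while the other wild type arrays lay between 9.69 and 9.73. Chance alone gives such an array in about 1 of 20 groups.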

How the results depend on the processing

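With the filter at the 75th percentile, 0 member probe sets passed in level and 0 in usage, since both Dbn1 probe sets were no longer retained, and 2 other actin genes passed in usage. With the splicing index, 1 member probe set passed in usage, with the gene median or the gene mean as reference, and 0 other actin genes. The splicing index difference of Dbn1 5244011 was then 0.72 or 0.63. Leaving out 1 array gave 2 to 4 member probe sets and 0 to 7 other actin genes in usage. Over all probe sets tested, the number passing diffSplice was then 171 to 865, beside 422 with all arrays. Without wild type 3 and knockout 3 together, 0 other actin genes passed in usage. With the replicate block, 1 other actin gene passed in usage in place of 4, and Dbn1 4469118 lost its splicing index call, as it also did with no signal filter. The replicate numbers are not said to pair embryos and were not taken as pairs. Same-numbered arrays correlated at -0.0039 to 0.25 in their deviations from the group means, and 4 of 8 correlated best with their own number. These values do not decide whether the numbers are pairs. Of the 85 counts under an alternative, 70 stayed within 1.5 times, among them 0 member genes and 0 other actin genes in level under each. A count that stays can hold other genes. With no signal filter 4 other actin genes passed in usage, but of the 4 that passed with the main filter only Hip1r was among them. The level differences of Dbn1 and Enah moved to -0.12 and -0.15 at the 75th percentile; the cause was not tested.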
